A study of Mus musculus with 24 samples.

Results

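The 9 genes described here belong to the pathway that makes prostaglandins and leukotrienes from arachidonic acid: *Pla2g4a*, *Ptgs1*, *Ptgs2*, *Ptges*, *Tbxas1*, *Alox5*, *Alox5ap*, *Ptger2* and *Ptger4*. They were found among the 22165 genes of the counts table by matching each Ensembl identifier, without its version, to these symbols in GENCODE M21, and all 9 were present. Transcripts were sequenced from bone marrow-derived macrophages (BMDMs), grown from mouse marrow for 7 days in 20 ng/ml of the growth factor M-CSF. The marrow came from mice of 8 to 20 weeks, either WT C57BL/6N mice bought from Charles River or *Irg1*-/- C57BL/6N mice. *Irg1* (*Acod1*) encodes the enzyme that makes itaconate. That WT and *Irg1*-/- animals were littermates is not stated, so genotype and colony cannot be told apart.

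Each genotype received 4 treatments, with 3 cultures in each of the 8 groups and 24 libraries in all. Cells were harvested unstimulated (Unstim.), after LPS at 100 ng/ml for 24 h (LPS 24h), or after LPS for 24 h, a change of medium, 1 h of rest and LPS again for 3 h (LPS 24h->LPS 3h, tolerized). The non-tolerized cells (LPS 3h) went through the same steps as the tolerized cells but received only the second dose, for 3 h. The sample labels do not tie cultures to single animals, so the spread between cultures may be partly technical.

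Cytosolic phospholipase A2, the product of *Pla2g4a*, cuts arachidonic acid from membrane phospholipids, and the cyclooxygenases COX-1 (*Ptgs1*) and COX-2 (*Ptgs2*) turn it into prostaglandin H2. Microsomal prostaglandin E synthase (*Ptges*) makes PGE2 from this intermediate and thromboxane synthase (*Tbxas1*) makes thromboxane A2, while 5-lipoxygenase (*Alox5*) and its activating protein FLAP (*Alox5ap*) start the leukotriene branch. PGE2 acts on macrophages through the EP2 and EP4 receptors (*Ptger2*, *Ptger4*), which raise cyclic AMP, and in LPS-treated macrophages COX-2 and microsomal PGE synthase are known as the inducible members of the pathway.

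The genes whose levels moved most lie on chromosomes 1 and 2 of GRCm38 (mm10). *Ptgs2* (ENSMUSG00000032487.8) spans chr1:150100031-150108227 on the plus strand, and *Pla2g4a* (ENSMUSG00000056220.14) spans chr1:149829618-149961290 on the minus strand. The 138740 bases between them hold 3 annotated genes and 0 protein-coding genes. *Ptges* (ENSMUSG00000050737.13) spans chr2:30889471-30929863 on the minus strand and *Ptgs1* (ENSMUSG00000047250.13) spans chr2:36230426-36252272 on the plus strand. For 8 of the 9 genes the RefSeq table of promoters (GRCm38.p6) had an entry, and *Alox5ap* was not among them.

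The 250 bases before the RefSeq start are shown for *Ptgs2* and *Ptges*, the members with the highest rise under LPS, and for *Ptgs1*, the member with the deepest fall. They lie at chr1:150099781-150100030 (plus strand), chr2:30903298-30903547 (minus strand) and chr2:36230176-36230425 (plus strand). The RefSeq start of *Ptges*, at 30903297, is inside the longer GENCODE gene. Capitals mark matches, on either strand, to a CRE core (TGACGT), an E-box (CACGTG), a C/EBP motif (TTNNGNAA), an AP-1 motif (TGACTCA), the GC box (GGGCGG), the TATA box (TATAAA) or the NF-kappaB consensus, each searched from 250 bases before to 50 bases after the start.
Ptgs2: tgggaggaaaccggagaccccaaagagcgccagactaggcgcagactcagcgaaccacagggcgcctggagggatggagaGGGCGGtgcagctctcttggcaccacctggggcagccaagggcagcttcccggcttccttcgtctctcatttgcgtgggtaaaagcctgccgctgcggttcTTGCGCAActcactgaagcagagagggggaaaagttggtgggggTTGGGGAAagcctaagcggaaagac
Ptges: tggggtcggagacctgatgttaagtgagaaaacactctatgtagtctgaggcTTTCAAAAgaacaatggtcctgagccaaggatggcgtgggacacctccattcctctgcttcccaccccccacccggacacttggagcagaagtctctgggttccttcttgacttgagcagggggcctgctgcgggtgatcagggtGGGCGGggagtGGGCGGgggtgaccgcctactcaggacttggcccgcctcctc
Ptgs1: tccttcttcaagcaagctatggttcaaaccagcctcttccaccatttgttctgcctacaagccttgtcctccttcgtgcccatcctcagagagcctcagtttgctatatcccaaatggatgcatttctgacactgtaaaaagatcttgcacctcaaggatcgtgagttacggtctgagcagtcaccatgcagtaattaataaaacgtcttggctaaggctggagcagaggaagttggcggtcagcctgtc
Just after its start, at chr1:150100031-150100060, *Ptgs2* also held a CRE core and an E-box that overlap each other.
Ptgs2 after the start: agagtcaccactACGTCACGTGgagtccgc

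In these windows *Ptgs2* held 2 C/EBP matches, 69 and 25 bases before the start, and 1 GC box. *Ptges* held 1 C/EBP match and 2 GC boxes, which began 53 and 42 bases before the start, and the *Ptgs1* window held no match to any of the 7 motifs. A CRE core was found in 7.51% of the 32851 promoter windows of the table, an E-box in 7.15%, a C/EBP motif in 40.7% and a GC box in 35.7%. The other motifs were found in 5.2% (AP-1), 13.6% (TATA box) and 8.46% (NF-kappaB consensus) of windows. A match describes the letters of the window only.

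The protocol reads the 3′ ends of polyadenylated transcripts, and the values are reads counted per gene without molecular identifiers. Libraries held 3927378 to 20430359 reads on genes (median 11539055). Levels are given as CPM, the reads of a gene scaled to a common library size after TMM normalisation in edgeR. They depend on 3′ annotation, so they are compared between groups and not between genes. *Acod1*, the targeted gene, was at 3794 CPM or more in every WT library under LPS and at 26.4 CPM or less in every *Irg1*-/- library, while unstimulated WT and *Irg1*-/- cells (8.42 and 9.77 CPM on average) could not be told apart by it. All 8 macrophage markers were detected in every library (summed level 3673 to 10138 CPM), and the T cell markers *Cd3d*, *Cd3e* and *Cd3g* had at most 9 reads in any library. A prefix of the sample descriptions, with 4 values and a meaning that is not stated, is called the pool here, and under LPS it partly follows genotype. All unstimulated libraries were in pool 4, WT cultures 1, 2 and 3 under each LPS treatment were in pools 1, 2 and 4, and *Irg1*-/- LPS libraries were in pools 1 to 3.

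The 9 genes took different courses. *Ptgs2*, *Ptges* and *Pla2g4a* were higher in every LPS library than in every unstimulated library of the same genotype, *Ptgs1* was lower in each, and the highest and lowest of the 8 group means differed by 1.80-fold for *Tbxas1*, 2.26-fold for *Alox5ap* and 3.26-fold for *Ptger2*. For *Ptger4* they differed by 6.36-fold, with the highest means after LPS 3h and the lowest after LPS 24h->LPS 3h. *Alox5* was close to undetected.

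**Figure D1:**
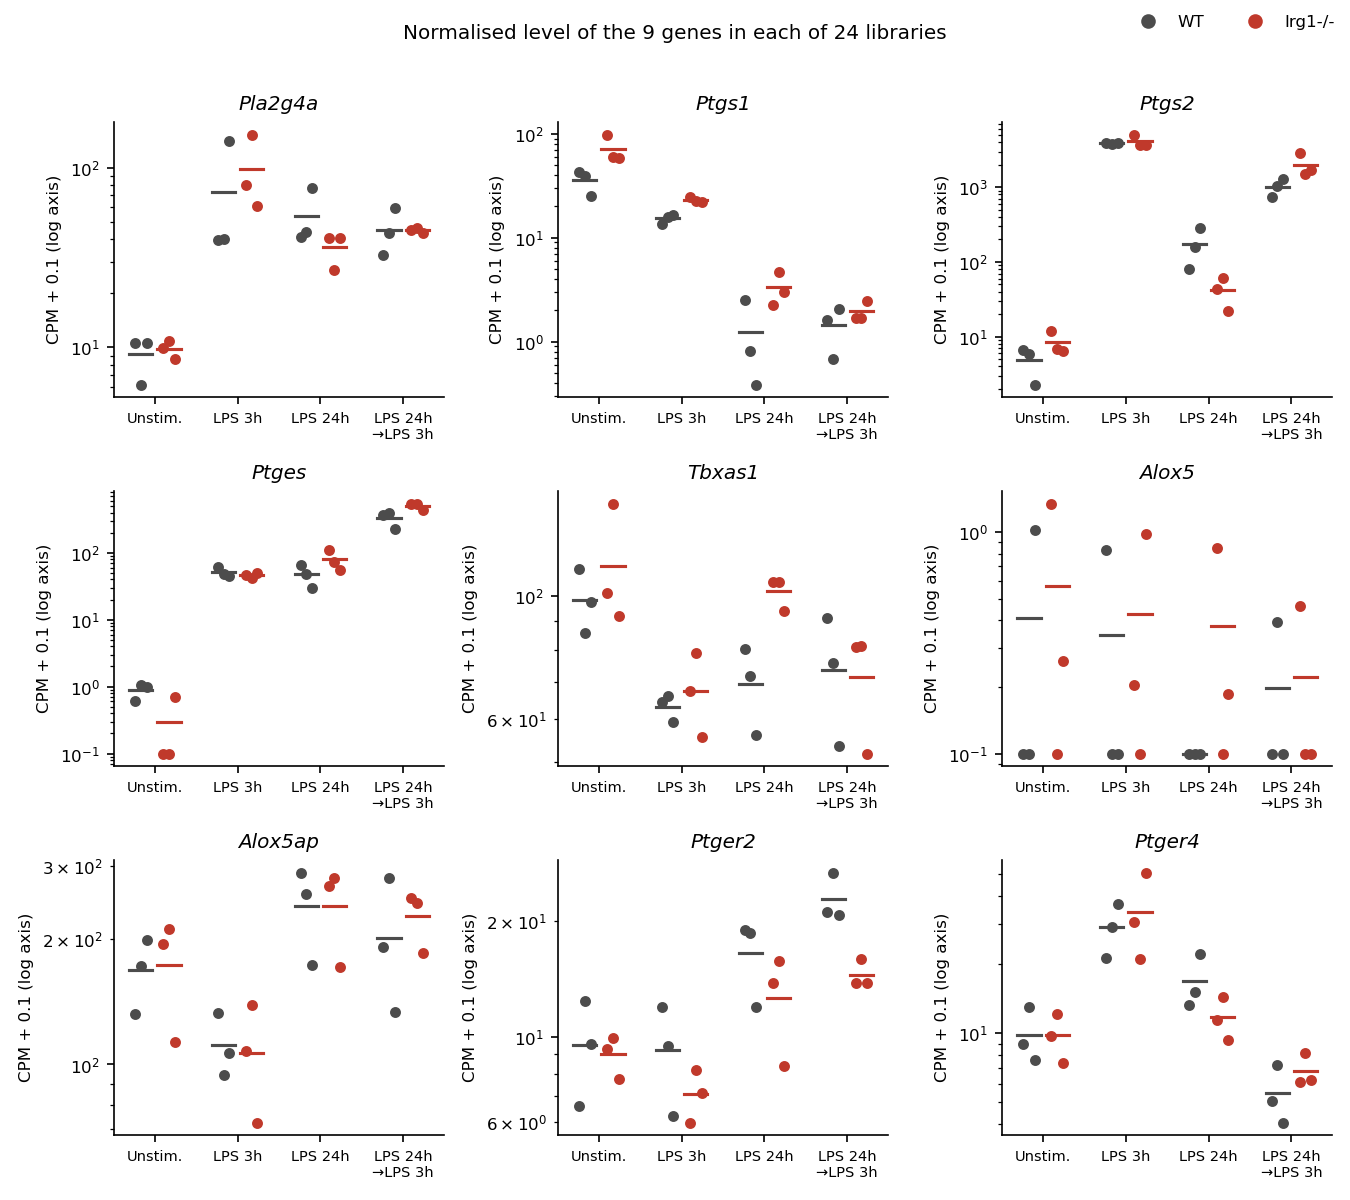
Level of each of the 9 genes (CPM plus 0.1, log axis) in the 4 treatments, with 1 point per culture (grey for WT, red for *Irg1*-/-) and a bar at the mean of 3 cultures. *Ptgs2* is highest after LPS 3h and *Ptges* after LPS 24h->LPS 3h in both genotypes, *Ptgs1* falls to under 5 CPM after LPS 24h, and *Alox5* has at most 19 reads in a library.

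*Pla2g4a*, which releases the substrate of the whole pathway, was at 10.5, 6.11 and 10.5 CPM in WT unstimulated cultures 1 to 3 and at 39.4, 39.9 and 140 CPM after LPS 3h. WT LPS 24h cultures held 41.1, 43.7 and 76.9 CPM, and WT LPS 24h->LPS 3h cultures held 32.7, 43.2 and 59.4 CPM. In *Irg1*-/- cells the values were 9.82, 10.7 and 8.56 CPM unstimulated, 79.8, 153 and 61.4 after LPS 3h, 40.7, 26.8 and 40.4 after LPS 24h, and 44.9, 45.8 and 43.4 after LPS 24h->LPS 3h. All LPS libraries lay above all unstimulated libraries, and within the LPS 3h groups 1 culture of each genotype stood well above the other two.

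*Ptgs2* encodes the inducible cyclooxygenase. WT cultures held 6.64, 5.73 and 2.19 CPM unstimulated, 3945, 3776 and 3948 after LPS 3h, 81.2, 160 and 286 after LPS 24h, and 741, 1031 and 1284 after LPS 24h->LPS 3h. *Irg1*-/- cultures held 11.8, 6.79 and 6.32 CPM, then 5064, 3649 and 3630, then 43.4, 60.6 and 22.2, and then 2826, 1482 and 1721 in the same order of treatments. The 4 treatments did not overlap within either genotype, with LPS 3h highest, then LPS 24h->LPS 3h, then LPS 24h, and unstimulated cells lowest. The genotypes overlapped when unstimulated and after LPS 3h. After LPS 24h every *Irg1*-/- culture lay below every WT culture, and after LPS 24h->LPS 3h every *Irg1*-/- culture lay above every WT culture.

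*Ptgs1*, the cyclooxygenase that most tissues express without a stimulus, was lower in every LPS group than in unstimulated cells of the same genotype. WT cultures held 42.5, 39.5 and 25.1 CPM unstimulated, 13.5, 15.9 and 16.4 after LPS 3h, 2.43, 0.715 and 0.287 after LPS 24h, and 1.5, 0.585 and 1.94 after LPS 24h->LPS 3h. *Irg1*-/- cultures held 98.3, 59.6 and 58.0 CPM unstimulated, 24.3, 22.5 and 21.8 after LPS 3h, 2.16, 4.63 and 2.89 after LPS 24h, and 1.61, 1.60 and 2.35 after LPS 24h->LPS 3h. Unstimulated cells were highest and LPS 3h intermediate without overlap in both genotypes, and the LPS 24h and LPS 24h->LPS 3h groups, with 3 to 68 reads per library, overlapped. In unstimulated cells and after LPS 3h, the *Irg1*-/- cultures all lay above the WT cultures.

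*Ptges*, which supplies PGE2, was close to the detection limit without LPS. It had 8, 10 and 18 reads (0.515, 0.955 and 0.878 CPM) in WT unstimulated cultures and 0, 0 and 11 reads in *Irg1*-/- unstimulated cultures, where 0 reads allow up to 0.565 CPM in the shallower library (3 reads, counting error only). WT cultures held 61.2, 47.4 and 44.4 CPM after LPS 3h, 65.0, 48.1 and 29.9 after LPS 24h, and 368, 394 and 227 after LPS 24h->LPS 3h. *Irg1*-/- cultures held 47.1, 41.3 and 49.6 CPM after LPS 3h, 110, 73.7 and 56.0 after LPS 24h, and 535, 545 and 430 after LPS 24h->LPS 3h. Restimulated cells were thus the highest group in each genotype, above all other libraries, and LPS 3h and LPS 24h lay at a like level with overlap in WT cells.

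*Tbxas1* (ENSMUSG00000029925.13, chr6:38875404-39084585, plus strand), which makes thromboxane A2, stayed between 51.8 and 147 CPM over all 24 libraries. Its group means ran from 63.0 CPM (WT LPS 3h) to 113 CPM (*Irg1*-/- Unstim.), and no group was separated from its neighbour in this order. The 5′ end of *Tbxas1* overlaps *Hipk2* on the other strand.

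*Alox5* (ENSMUSG00000025701.12, chr6:116410077-116461178, minus strand) had 61 reads in all libraries together, 0 reads in 14 of 24 libraries and at most 19 reads (1.25 CPM at most), and was not tested. A count of 0 allows up to 0.127 to 0.565 CPM, depending on the depth of the library. *Alox5ap* (ENSMUSG00000060063.9, chr5:149264767-149288153, plus strand) was read throughout. Its lowest group was *Irg1*-/- LPS 3h at 106 ± 33.3 CPM (SD, n = 3) and its highest was *Irg1*-/- LPS 24h at 240 ± 60.2 CPM, and all neighbours in the order of the 8 groups overlapped. An antisense gene, *Gm19719*, has an exon within the last 1000 bases of *Alox5ap* but ends at 149287868, before the end of *Alox5ap*. Because the strand setting of the counting is not given, reads of *Gm19719* in the shared part cannot be told apart from those of *Alox5ap*.

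The receptors of PGE2 moved in different ways. *Ptger2* (EP2, chr14:44988195-45003820, plus strand) was at 20.7 to 26.7 CPM in the 3 WT LPS 24h->LPS 3h cultures, above the 5.87 to 18.9 CPM of all other libraries. *Ptger4* (EP4, ENSMUSG00000039942.15, chr15:5206661-5244187, minus strand) was at 21.1, 29.2 and 36.8 CPM in WT and 30.5, 21 and 50.5 CPM in *Irg1*-/- cells after LPS 3h. It was at 4.96, 7.11 and 3.96 CPM in WT and 5.99, 8.12 and 6.15 CPM in *Irg1*-/- cells after LPS 24h->LPS 3h, the lowest means of the 8 groups. The means of unstimulated cells (libraries at 7.28 to 12.9 CPM) and LPS 24h cells (9.26 to 22.2 CPM) lay between these, but single libraries overlapped with those of the LPS 3h and LPS 24h->LPS 3h groups. *Ttc33* overlaps *Ptger4* on the other strand but has no exon in its last 1000 bases.

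For each difference, 1 edgeR model of the 8 groups gave a quasi-likelihood test, with Benjamini-Hochberg adjustment of the p-values across 11878 genes that had enough reads, 8 of the 9 members among them. A gene is called when its adjusted p is under 0.05. All adjusted p-values below are from this test, each log2 fold change is given with its standard error (SE), and each group has 3 cultures.

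The comparison of LPS 3h with unstimulated cells gives the early response. The LPS 3h cells also had a change of medium and 1 h of rest, which are not recorded for unstimulated cells. These steps cannot be told apart from LPS in this comparison. In WT cells 4 of the 8 tested members rose, against 15.8% of all genes tested, and 1 fell, against 16.3% of all genes. *Ptgs2* rose by 9.66 on the log2 scale (SE 0.58, adjusted p = 1.76e-14), an 808-fold difference, and *Ptges* rose by 6.02 (SE 0.47, adjusted p = 6.46e-12). *Pla2g4a* rose by 3.01 (SE 0.43, adjusted p = 1.5e-06) and the receptor gene *Ptger4* by 1.58 (SE 0.37, adjusted p = 0.00104). *Ptgs1* fell by 1.22 (SE 0.41, adjusted p = 0.0219). This last call was lost without WT LPS 3h culture 1, 2 or 3 or WT unstimulated culture 1 or 2 (adjusted p = 0.0547 to 0.0907) and with the pool as a term (adjusted p = 0.0631).

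*Irg1*-/- cells had 6 members called after LPS 3h (35.9% of all genes), of which 4 rose, against 17% of all genes, and 2 fell, against 18.9%. The rises were 8.96 for *Ptgs2* (SE 0.57, adjusted p = 7.33e-14), 7.11 for *Ptges* (SE 0.53, adjusted p = 3.39e-12), 3.34 for *Pla2g4a* (SE 0.44, adjusted p = 3.66e-07) and 1.82 for *Ptger4* (SE 0.37, adjusted p = 0.000244). *Ptgs1* fell by 1.65 (SE 0.41, adjusted p = 0.00216), and *Tbxas1* fell by 0.75 (SE 0.28, adjusted p = 0.0337). The *Ptges* value rests on 11 reads of 1 unstimulated culture (culture 3). Without that culture *Ptges* was at 0 in unstimulated *Irg1*-/- cells and at least 81.3-fold higher after LPS 3h, against a floor of 3 reads per library. The *Tbxas1* call was lost when any *Irg1*-/- culture other than unstimulated culture 3 was left out (adjusted p = 0.051 to 0.245), without the filter on low counts (adjusted p = 0.0826) and in a fit of these 2 groups alone (adjusted p = 0.107). In WT cells the log2 value of *Tbxas1* was -0.64 and was not called in the main fit. With the pool as a term the WT value was called (-0.91, adjusted p = 0.0231).

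No pool held both LPS-treated and unstimulated *Irg1*-/- libraries. In WT cells pool 4 held 1 LPS 3h library beside the 3 unstimulated ones, and within it the log2 differences were 9.76 for *Ptgs2*, 5.57 for *Ptges*, 3.97 for *Pla2g4a*, 1.93 for *Ptger4* and -1.07 for *Ptgs1*. With the pool as a term, the *Irg1*-/- rises were 9.64 for *Ptgs2*, 6.54 for *Ptges*, 4.12 for *Pla2g4a* and 1.84 for *Ptger4*, all called, while *Ptgs1* (adjusted p = 0.23) and *Tbxas1* (adjusted p = 0.0841) were not.

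After 24 h of LPS the COX-2 transcript was lower than in the LPS 3h groups, while the fall of *Ptgs1* was deeper. LPS 24h was not tested against LPS 3h, whose cells also had the change of medium and 1 h of rest. In *Irg1*-/- cells these groups share no pool. In WT cells 4 members were called against unstimulated cells (16.2% of all genes), of which 3 were higher, against 9.25% of all genes, and 1 was lower, against 6.98%. *Ptges* was higher by 5.92 (SE 0.47, adjusted p = 2.47e-11), *Ptgs2* by 5.19 (SE 0.48, adjusted p = 8.44e-10) and *Pla2g4a* by 2.57 (SE 0.42, adjusted p = 3.11e-05). *Ptgs1* fell by 5.02 (SE 0.51, adjusted p = 5.18e-09). Within pool 4, with 1 LPS 24h library, the log2 differences were 5.01, 5.97, 3.11 and -6.24 for these 4 genes.

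The same 4 members were called in *Irg1*-/- cells after LPS 24h, 3 higher against 7.31% of all genes and 1 lower against 6.38%. The values were 7.90 for *Ptges* (SE 0.54, adjusted p = 2.95e-12), 2.35 for *Ptgs2* (SE 0.43, adjusted p = 0.000174), 1.90 for *Pla2g4a* (SE 0.42, adjusted p = 0.00155) and -4.48 for *Ptgs1* (SE 0.47, adjusted p = 1.38e-08). Without unstimulated culture 3 *Ptges* was at least 141-fold higher. All 4 were also called with the pool as a term, with log2 values of 7.19, 3.27, 3.10 and -4.83. *Tbxas1*, *Alox5ap*, *Ptger2* and *Ptger4* were not called after LPS 24h in either genotype, with log2 values from -0.51 to 0.80.

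The neutrophil and fibroblast lists were lower in the later groups, where *Ptgs1* was lowest. After LPS 3h, where *Ptgs1* was already lower without overlap, both lists overlapped with unstimulated cells in each genotype. The summed level of 8 neutrophil genes was 412 to 719 CPM in unstimulated and LPS 3h libraries and 65.1 to 231 CPM after LPS 24h and LPS 24h->LPS 3h, with *S100a8* and *S100a9* as its largest members and *Ly6g* at 0 in 17 of 24 libraries. The summed level of 5 fibroblast genes was 263 to 434 CPM in unstimulated and LPS 3h libraries and 103 to 246 CPM in the later groups. Their part in the fall of *Ptgs1* was not tested. In bulk samples fewer cells of a type and less RNA per cell cannot be told apart. The list of 6 mast cell and basophil genes rose to 26 to 38.1 CPM after LPS 3h, from at most 6.63 CPM in the other groups, through *Hdc*, while *Fcer1a* was at 0 in all 24 libraries and *Cpa3* in 23. The megakaryocyte and platelet list, mostly *Pf4*, was at 117 to 154 CPM in WT and 372 to 499 CPM in *Irg1*-/- unstimulated cells. Under LPS it was at 183 to 642 CPM. Eosinophil genes summed to 12.7 to 50.1 CPM, mostly *Ccr3*, with *Epx* at 0 in 22 libraries, and the B cell and dendritic cell lists were at 3.02 CPM or less.

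**Figure D2:**
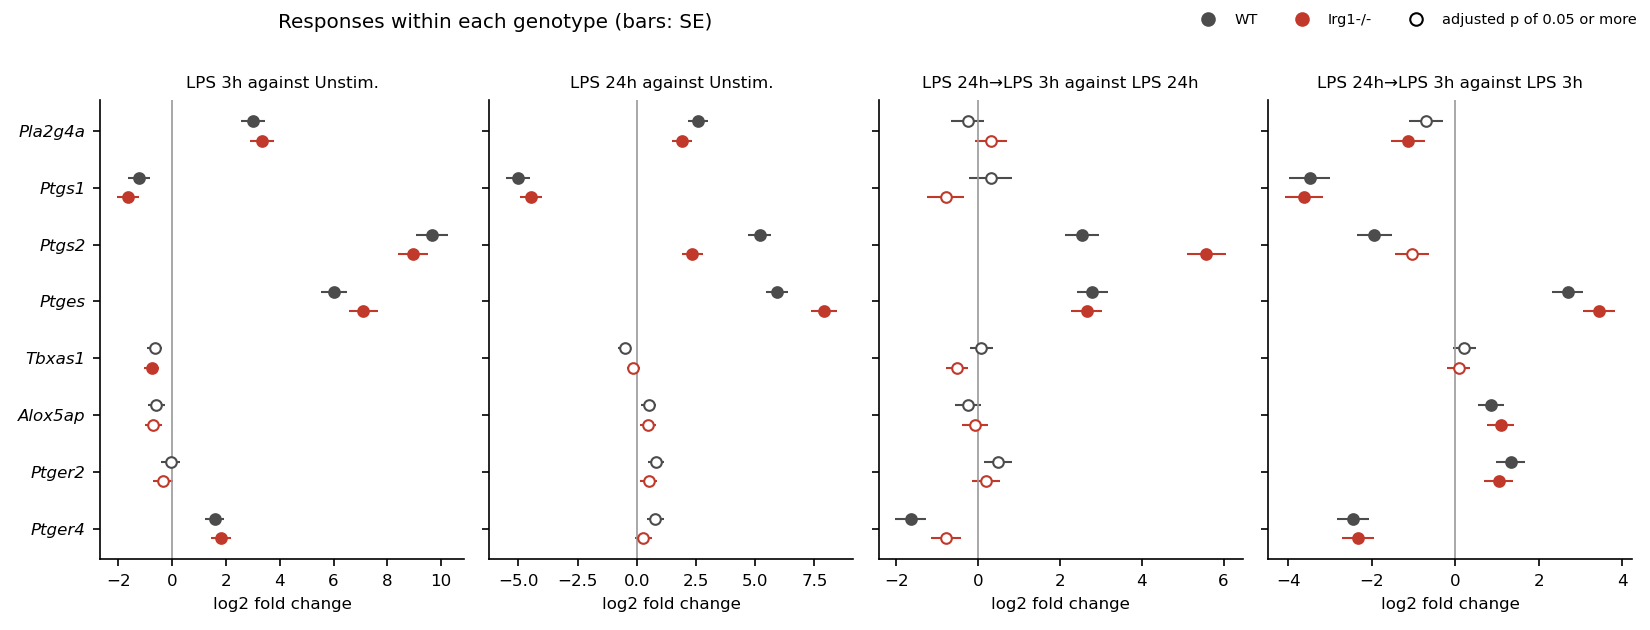
Log2 fold change of the 8 tested members in 4 comparisons within WT (grey) and *Irg1*-/- (red) cells, with bars of 1 SE and filled points where the adjusted p is under 0.05. *Ptgs2* and *Ptges* lie to the right in the first 3 panels, and in the panel of tolerized against non-tolerized cells *Ptges* lies at 2.69 and 3.45 while *Ptgs2* lies at -1.93 and -1.03.

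After restimulation of LPS 24h cells, the transcripts of both inducible enzymes that lead from arachidonic acid to PGE2 were higher. Restimulated cells of both genotypes also had the change of medium and 1 h of rest, which LPS 24h cells did not. The second dose cannot be told apart from these steps in this comparison. In WT cells 3 members were called (3.99% of all genes), of which 2 rose from LPS 24h to LPS 24h->LPS 3h, against 2.46% of all genes, and 1 fell, against 1.53%. *Ptges* rose by 2.79 (SE 0.38, adjusted p = 1.41e-05), *Ptgs2* rose by 2.54 (SE 0.42, adjusted p = 0.000249), and *Ptger4* fell by 1.65 (SE 0.37, adjusted p = 0.00753). The 3 pairs of WT libraries that share a pool gave 2.50, 3.03 and 2.92 for *Ptges*, 3.19, 2.69 and 2.17 for *Ptgs2*, and -1.38, -1.06 and -2.43 for *Ptger4*. The *Ptger4* call was lost in a fit of these 2 groups alone (adjusted p = 0.0787), without LPS 24h culture 3 (adjusted p = 0.0651) and without LPS 24h->LPS 3h culture 3 (adjusted p = 0.055).

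The same 2 enzymes were the members called in *Irg1*-/- cells on restimulation (5.14% of all genes), both higher, against 3.44% of all genes, and 0 members fell, against 1.7%. *Ptgs2* rose by 5.58 (SE 0.48, adjusted p = 1.6e-09), a 47.8-fold difference, and *Ptges* by 2.66 (SE 0.37, adjusted p = 1.23e-05). *Ptger4* had a log2 value of -0.78 with groups that did not overlap and was not called (SE 0.36, adjusted p = 0.28). Within pool 1, with 2 restimulated and 3 LPS 24h libraries, the log2 differences were 5.36 for *Ptgs2*, 2.65 for *Ptges* and -0.68 for *Ptger4*.

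The comparison of tolerized with non-tolerized cells, LPS 24h->LPS 3h against LPS 3h, asks how the first dose changes the response to the same 3 h of LPS. In WT cells 3 members were higher, against 12.4% of all genes, and 3 were lower, against 13.1%. *Ptges* was higher by 2.69 (SE 0.38, adjusted p = 2.93e-06), a 6.47-fold difference, *Ptger2* by 1.33 (SE 0.35, adjusted p = 0.00528) and *Alox5ap* by 0.86 (SE 0.32, adjusted p = 0.0478). The log2 fold change was -3.49 for *Ptgs1* (SE 0.48, adjusted p = 2.3e-06), -2.44 for *Ptger4* (SE 0.38, adjusted p = 1.46e-05) and -1.93 for *Ptgs2* (SE 0.41, adjusted p = 0.000709). *Ptgs2* and *Ptges*, which act in consecutive steps of PGE2 synthesis, thus moved in opposite directions between these conditions. The pairs of libraries from the same pool gave -2.41, -1.87 and -1.62 for *Ptgs2* and 2.58, 3.05 and 2.35 for *Ptges*. The *Alox5ap* call was lost without LPS 3h culture 1, 2 or 3 or restimulated culture 1 or 2 (adjusted p = 0.0598 to 0.296), with DESeq2's size factors (adjusted p = 0.0708), in a fit of these 2 groups alone (adjusted p = 0.109) and with the pool as a term (adjusted p = 0.059).

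In *Irg1*-/- cells 3 members were higher in tolerized than in non-tolerized cells, against 13.1% of all genes, and 3 were lower, against 14.1%. *Ptges* was higher by 3.45 (SE 0.39, adjusted p = 6.72e-08), *Alox5ap* by 1.09 (SE 0.32, adjusted p = 0.0114) and *Ptger2* by 1.04 (SE 0.35, adjusted p = 0.0266). The log2 fold change was -3.62 for *Ptgs1* (SE 0.46, adjusted p = 6.02e-07), -2.33 for *Ptger4* (SE 0.38, adjusted p = 1.94e-05) and -1.13 for *Pla2g4a* (SE 0.40, adjusted p = 0.0346). In WT cells *Pla2g4a* was at -0.70 and was not called (adjusted p = 0.204). Its difference between the genotypes was not called either (-0.43, adjusted p = 0.935). *Ptgs2*, at -1.03 with groups that did not overlap, was not called (SE 0.40, adjusted p = 0.0537), and was called with DESeq2 (adjusted p = 0.0226), with DESeq2's size factors (adjusted p = 0.037), without the filter on low counts (adjusted p = 0.0147), in a fit of these 2 groups alone (adjusted p = 0.0133), with the replicate block (adjusted p = 0.0425) and without restimulated culture 1 (adjusted p = 0.0332). With the pool as a term it was not (adjusted p = 0.227).

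The smaller of these *Irg1*-/- calls depended on single libraries and on the pool. *Pla2g4a* was not called without restimulated culture 1, 2 or 3 or LPS 3h culture 2 (adjusted p = 0.081 to 0.257), *Ptger2* was not called without restimulated culture 1, 2 or 3 or LPS 3h culture 1 or 3 (adjusted p = 0.0502 to 0.102), and *Alox5ap* was not called without LPS 3h culture 3 (adjusted p = 0.0787). With the pool as a term 3 of the 6 members were called. The single pair of libraries in 1 pool, pool 2, gave 3.50 for *Ptges*, 1.22 for *Alox5ap*, 1.2 for *Ptger2*, -3.78 for *Ptgs1*, -2.31 for *Ptger4*, -0.83 for *Pla2g4a* and -0.84 for *Ptgs2*.

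The comparison of *Irg1*-/- with WT cells asks whether loss of itaconate synthesis changes the level of these genes within a treatment. The difference that passed the test was that of *Ptgs2* after LPS 24h. There *Ptgs2* was at 176 ± 103 CPM in WT and 42.1 ± 19.2 CPM in *Irg1*-/- cells (SD, n = 3), a log2 difference of -2.06 (SE 0.41, adjusted p = 0.0147), or 4.18-fold lower. It was the 1 member of 8 called, against 0.598% of all genes in either direction, 0.497% lower and 0.101% higher.

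This difference was smaller within the pool. All 3 *Irg1*-/- LPS 24h libraries were in pool 1, where the single WT library, culture 1, had the lowest WT level (81.2 CPM), and the log2 difference within pool 1 was -1.06. With the pool as a term it was -1.44 (adjusted p = 0.215), and in a fit of these 2 groups alone it was -2.04 (adjusted p = 0.238). It was not called without WT culture 3 (log2 -1.5, adjusted p = 0.198), without *Irg1*-/- culture 3 (-1.75, adjusted p = 0.145) or without *Irg1*-/- culture 1 (-2.07, adjusted p = 0.0697). In each of these fits *Ptgs2* was lower in *Irg1*-/- cells.

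**Figure D3:**
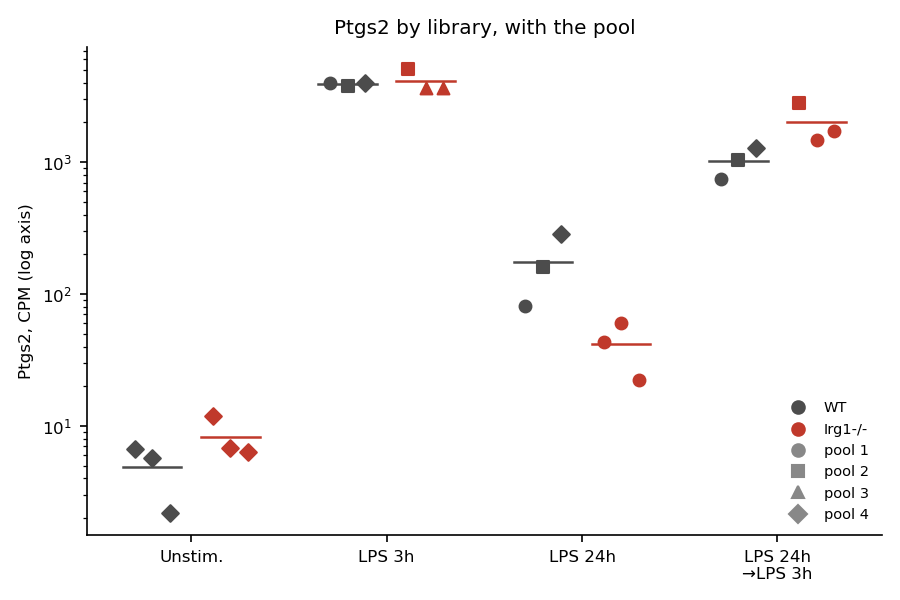
Level of *Ptgs2* (CPM, log axis) in each library by treatment, with WT in grey, *Irg1*-/- in red, marker shapes for the 4 pools and bars at the group means. After LPS 24h the WT libraries of pools 1, 2 and 4 lie at 81.2, 160 and 286 CPM and the 3 *Irg1*-/- libraries, all of pool 1, lie at 22.2 to 60.6 CPM.

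In the other treatments 0 members were called between the genotypes. The test called 0.0421% of all genes in unstimulated cells, 0.00842% after LPS 3h and, in the LPS 24h->LPS 3h groups, 0.118% (0.0926% lower), and the lowest adjusted p of a member was 0.745, 0.973 and 0.475. At an unadjusted p under 0.05 there were 2 members in unstimulated cells (618 of all genes), 0 after LPS 3h (694 of all genes) and 1 after LPS 24h->LPS 3h (936 of all genes), and DESeq2 called 0 members in each. After LPS 24h->LPS 3h *Ptgs2* was at 1019 ± 272 CPM in WT and 2010 ± 717 CPM in *Irg1*-/- cells, with a log2 difference of 0.98 (SE 0.40, adjusted p = 0.475), and within pools 1 and 2 the differences were 1.11 and 1.45. *Ptges* had groups that did not overlap in this treatment, with a log2 difference of 0.61 (SE 0.35, adjusted p = 0.727) and within-pool values of 0.40 and 0.44. *Ptger2* did not overlap here either and was lower in *Irg1*-/- cells (log2 difference -0.66, adjusted p = 0.666, within-pool values -0.52 and -0.95). The share of all genes without overlap between the genotypes was not determined.

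*Ptgs1* was at 35.7 ± 9.31 CPM in WT and 72.0 ± 22.9 CPM in *Irg1*-/- unstimulated cells, all 6 of which were in pool 4. The groups did not overlap and the log2 difference of 1.01 was not called (SE 0.40, adjusted p = 0.745). After LPS 3h the *Ptgs1* groups again did not overlap (log2 difference 0.58, SE 0.41, adjusted p = 0.973, within pool 2 0.61). After LPS 24h its log2 difference was 1.55 (SE 0.49, adjusted p = 0.173), which became 2.63 with an adjusted p of 0.00869 without WT culture 1, and which was 0.32 within pool 1. DESeq2 (adjusted p = 0.0395) and edgeR without the filter on low counts (adjusted p = 0.0487) also called it. After LPS 24h *Tbxas1* and *Pla2g4a* also had groups without overlap and were not called. *Tbxas1* was at 56.0 to 80.2 CPM in WT and 93.8 to 106 CPM in *Irg1*-/- cells (within pool 1 0.34). *Pla2g4a* was lower in *Irg1*-/- cells (log2 difference -0.58, adjusted p = 0.701, within pool 1 -0.22).

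**Figure D4:**
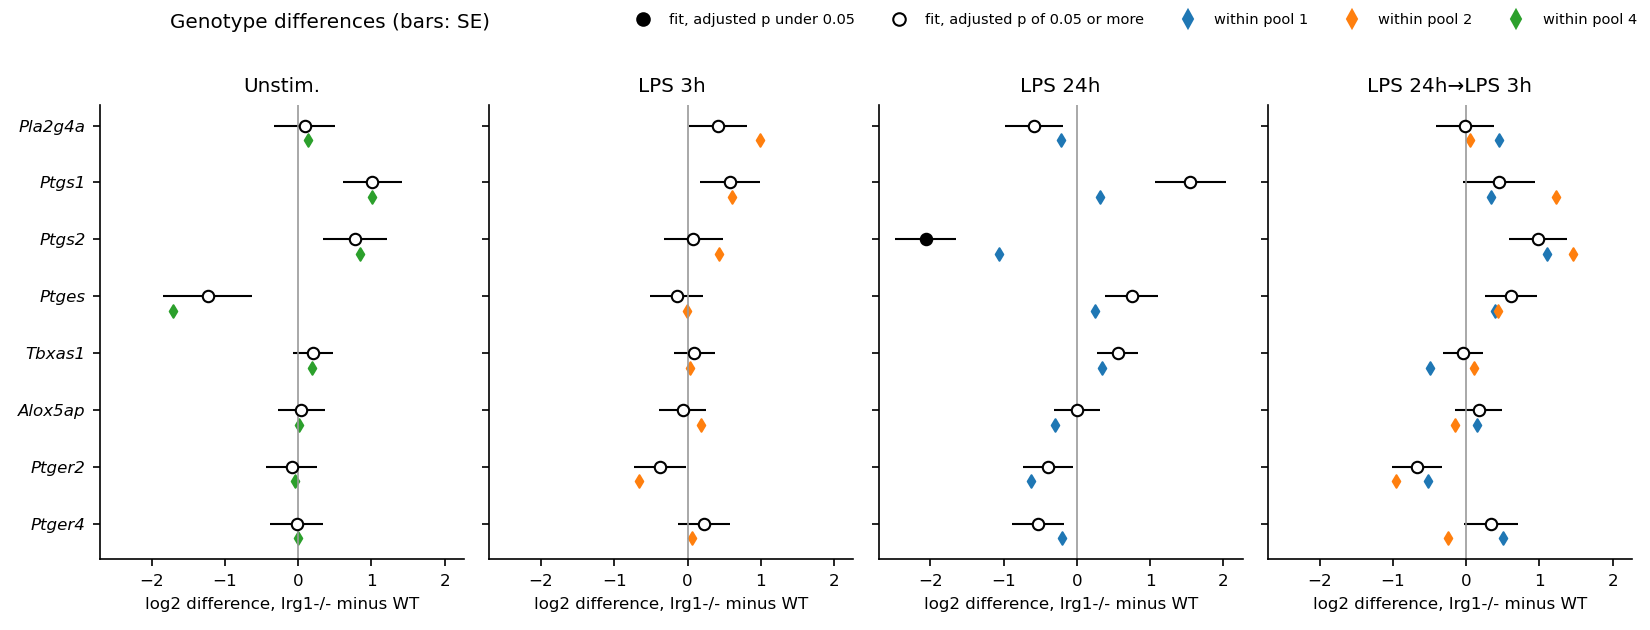
Log2 difference between *Irg1*-/- and WT cells for the 8 tested members in each treatment (circles, with bars of 1 SE, filled where the adjusted p is under 0.05) and the difference within each pool that held both genotypes (diamonds). The filled circle is *Ptgs2* after LPS 24h at -2.06, with its pool 1 value at -1.06, and the *Ptges* value of unstimulated cells rests on 0 to 18 reads per library.

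Whether a response itself differed between the genotypes was tested as the *Irg1*-/- response minus the WT response. For LPS 24h against unstimulated cells, *Ptgs2* had a difference of -2.84 (SE 0.60, adjusted p = 0.0247) and was the 1 member called, against 0.21% of all genes in either direction and 0.185% lower. The call was lost with the pool as a term (-2.22, adjusted p = 0.164), in a fit of the 4 groups alone (-2.82, adjusted p = 0.194) and without any of 7 of the 12 libraries (adjusted p = 0.054 to 0.134), which are *Irg1*-/- LPS 24h cultures 1 and 3, *Irg1*-/- unstimulated culture 1, WT LPS 24h culture 3 and WT unstimulated cultures 1, 2 and 3. *Ptges* had a difference of 1.98 that was not called (SE 0.70, adjusted p = 0.368), and its value without *Irg1*-/- unstimulated culture 3 (6.90, adjusted p = 0.025) was fitted against a group at 0 reads.

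For restimulation against LPS 24h the *Ptgs2* difference was 3.04 (SE 0.58, adjusted p = 0.0569) and 0 members were called, against 0.00842% of all genes. At an unadjusted p under 0.05 there was 1 member, *Ptgs2*, and 1029 genes in all. DESeq2 (adjusted p = 0.000735), edgeR without the filter on low counts (adjusted p = 3.03e-07), the fit with the pool as a term (2.71, adjusted p = 0.0483) and the fits without WT LPS 24h culture 1 (adjusted p = 0.00446) or culture 2 (adjusted p = 0.0403) called it, and a fit of the 4 groups alone did not (adjusted p = 0.224). The LPS 24h libraries enter both of these tests of *Ptgs2*. For LPS 3h against unstimulated cells and for tolerized against non-tolerized cells 0 members were called, against 0.00842% and 0% of all genes. At an unadjusted p under 0.05 there were 0 members in each, with 675 and 859 genes in all, and DESeq2 called 0 members in each.

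The rest of the pathway was followed with a list of 46 further genes for phospholipases, prostanoid and leukotriene enzymes, receptors, transporters and breakdown enzymes, of which 27 had enough reads to be tested. In WT cells 3 rose and 6 fell after LPS 3h, 0 rose and 5 fell after LPS 24h, 1 rose and 1 fell on restimulation, and 6 were higher and 5 lower in tolerized than in non-tolerized cells, where the test called 32%, 16.2%, 3.99% and 25.5% of all genes in either direction. The *Irg1*-/- counts were 5 and 5, 5 and 6, 0 and 2, and 2 and 5, against 35.9%, 13.7%, 5.14% and 27.2% of all genes. After LPS 3h the 9 of 27 genes called in WT and 10 of 27 in *Irg1*-/- cells were a share near that of all genes. Between the genotypes 0 of 27 were called by edgeR in each treatment, with a lowest adjusted p of 0.0663 after LPS 24h, and the number at an unadjusted p under 0.05 was 1 to 3.

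*Hpgd*, which encodes the dehydrogenase that inactivates prostaglandins, had the deepest fall in this list. WT unstimulated cultures held 356, 225 and 698 reads (22.9, 21.5 and 34 CPM), WT LPS 3h cultures held 8, 23 and 32 reads (1.46 to 4.24 CPM), and WT LPS 24h cultures held 0 reads each. WT cells were thus at least 71.6-fold lower after LPS 24h than unstimulated, against a floor of 3 reads per library. In *Irg1*-/- cells *Hpgd* was at 18.7 ± 7.75 CPM unstimulated, 11.5 ± 2.09 after LPS 3h and 0.439 ± 0.264 after LPS 24h, a fall of 5.33 on the log2 scale (SE 0.61, adjusted p = 1.51e-07). After LPS 3h *Hpgd* fell by 3.20 in WT cells (SE 0.54, adjusted p = 2.79e-05), while its value in *Irg1*-/- cells was -0.71 (SE 0.49, adjusted p = 0.281) and 0.056 with the pool as a term, and the difference between these responses was not called (2.49, adjusted p = 0.7). Restimulated cultures held 7, 2 and 9 reads in WT and 2, 3 and 11 reads in *Irg1*-/- cells. Against the 0 reads of WT LPS 24h cells the WT value was called (adjusted p = 0.0125) and was at least 1.58-fold higher, at 0.576 CPM against a floor of 3 reads per library, and the call was lost without LPS 24h culture 2 (adjusted p = 0.0614) or culture 3 (adjusted p = 0.057). In *Irg1*-/- cells the log2 value of *Hpgd* on restimulation was -0.19 (SE 0.66, adjusted p = 0.948).

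Of the phospholipases, *Plaat3* rose by 2.90 in WT (SE 0.45, adjusted p = 4.78e-06) and 2.99 in *Irg1*-/- cells (SE 0.46, adjusted p = 4.1e-06) after LPS 3h, while *Pla2g15*, a lysosomal phospholipase, fell by 2.44 (SE 0.37, adjusted p = 3.38e-06) and 2.06 (SE 0.36, adjusted p = 3.58e-05). *Plaat3* was at 42.9 ± 11.7 and 45.8 ± 18.7 CPM after LPS 3h and at 5.67 ± 2.24 and 5.85 ± 1.17 CPM unstimulated in WT and *Irg1*-/- cells, without overlap. In tolerized against non-tolerized cells *Plaat3* was lower by 2.31 in *Irg1*-/- (SE 0.43, adjusted p = 0.000162) and 1.87 in WT cells (adjusted p = 0.00152). *Pla2g2e* was called higher in tolerized WT cells (adjusted p = 0.0427), at least 1.77-fold against a floor of 3 reads. Non-tolerized WT cells held 0 reads of it, and the call was lost without any single library (adjusted p = 0.0531 to 0.118). *Pla2g15* was also lower after LPS 24h, by 2.08 in WT (SE 0.36, adjusted p = 6.04e-05) and 1.46 in *Irg1*-/- cells (adjusted p = 0.00373). On restimulation *Pla2g15* fell by 1.19 in *Irg1*-/- cells (SE 0.35, adjusted p = 0.0438), a call lost without any single library (adjusted p = 0.0679 to 0.216). In WT cells that value was -0.32 (adjusted p = 0.739). *Mgst3*, a microsomal glutathione transferase that can act on leukotriene A4, fell by 1.93 in WT (SE 0.48, adjusted p = 0.00437) and by 2.38 in *Irg1*-/- cells (SE 0.49, adjusted p = 0.00062) after LPS 24h.

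Among receptors, *Cysltr1*, the receptor of cysteinyl leukotrienes, fell on restimulation by 1.65 in WT (SE 0.34, adjusted p = 0.0036) and by 1.79 in *Irg1*-/- cells (SE 0.34, adjusted p = 0.000897). *Ptgir*, the prostacyclin receptor, rose by 2.21 in *Irg1*-/- cells after LPS 24h (SE 0.45, adjusted p = 0.00062). In WT cells its value there was 1.19 without overlap and was not called (SE 0.43, adjusted p = 0.0567), but it was called without the filter on low counts (adjusted p = 0.0484), with the pool as a term (adjusted p = 0.0158), with the replicate block (adjusted p = 0.0188) and without unstimulated culture 3 (adjusted p = 0.0486). After LPS 3h *Ptgir* rose by 1.19 in WT (SE 0.44, adjusted p = 0.0358) and by 1.42 in *Irg1*-/- cells (SE 0.45, adjusted p = 0.0144). These calls were lost without WT LPS 3h culture 1 or 3 or WT unstimulated culture 1 or 2 (adjusted p = 0.0825 to 0.12), and without *Irg1*-/- LPS 3h culture 1 or unstimulated culture 3 (adjusted p = 0.0605 and 0.0676).

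*Ptgr1*, a reductase that inactivates prostaglandins and leukotriene B4, was higher by 2.51 in tolerized than in non-tolerized WT cells (SE 0.43, adjusted p = 4.59e-05) and by 1.51 in *Irg1*-/- cells (SE 0.41, adjusted p = 0.00639). The *Irg1*-/- call was lost with the pool as a term (adjusted p = 0.0659) and without restimulated culture 1 (adjusted p = 0.0686). In the same comparison *Hpgd* was lower by 4.81 in *Irg1*-/- (SE 0.62, adjusted p = 1.01e-06) and 2.29 in WT cells (adjusted p = 0.00632). The WT *Hpgd* call was lost in a fit of these 2 groups alone (adjusted p = 0.079). *Mgst3* was lower there by 2.42 in WT (SE 0.50, adjusted p = 0.000497) and 2.18 in *Irg1*-/- cells (SE 0.49, adjusted p = 0.0012). *Ptgr2*, a further prostaglandin reductase, fell by 1.54 in *Irg1*-/- cells (SE 0.34, adjusted p = 0.000527) and by 1.22 in WT cells (SE 0.34, adjusted p = 0.00542) after LPS 3h, and both calls were lost with the pool as a term (adjusted p = 0.184 and 0.0665).

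**Figure D5:**
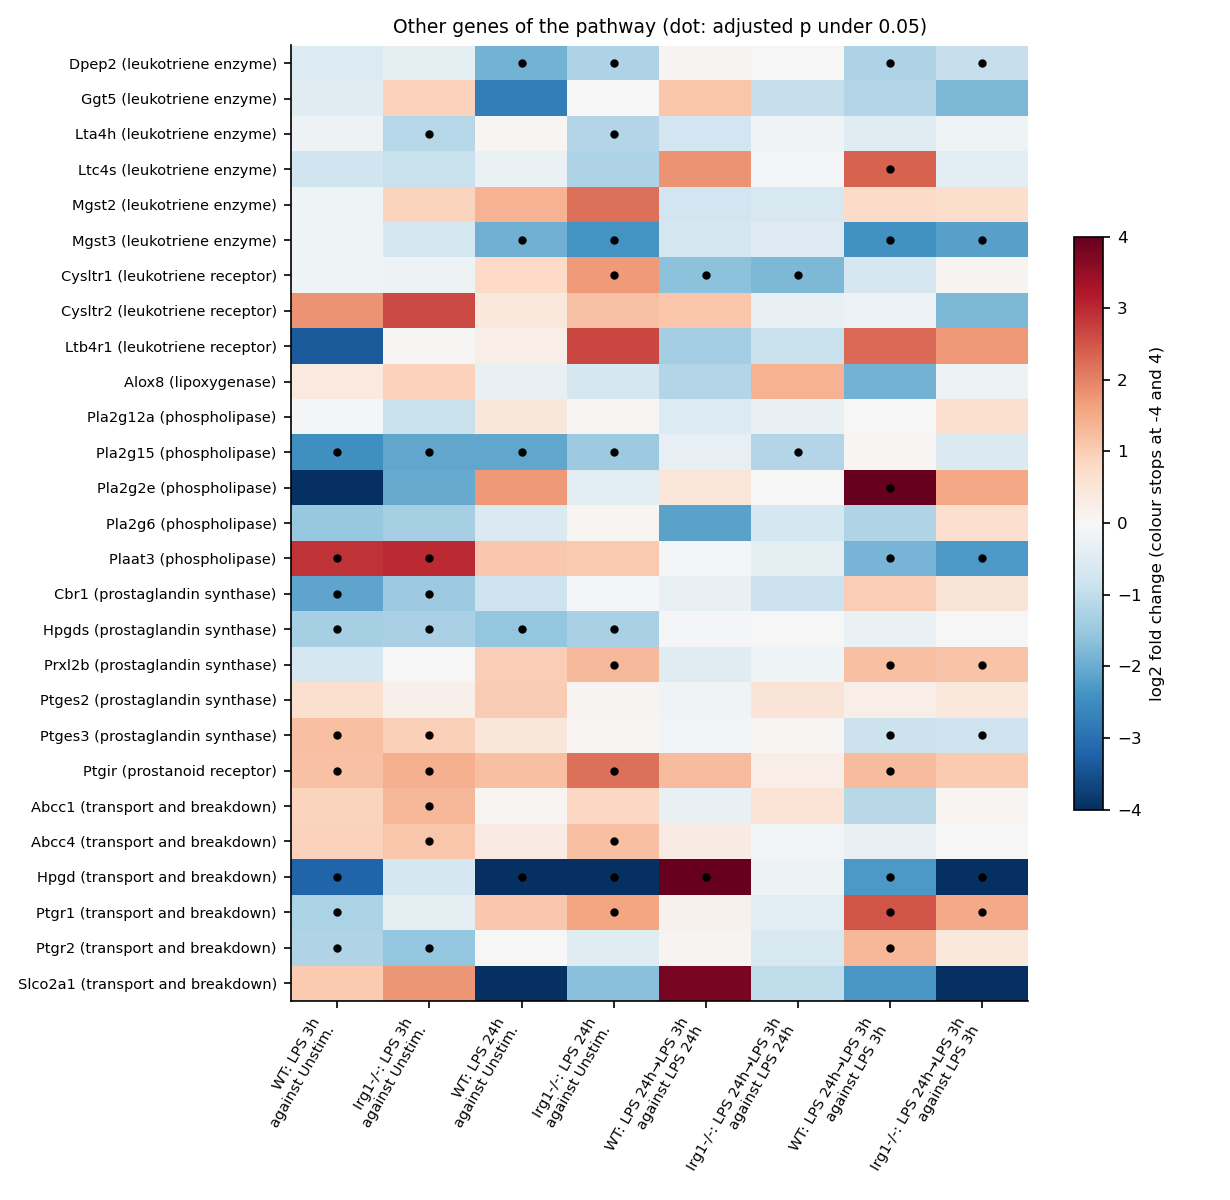
Log2 fold change (colour, red for higher and blue for lower, limited at -4 and 4) of the 27 tested genes of the rest of the pathway in 8 comparisons, with a dot where the adjusted p is under 0.05. *Hpgd* is lower after LPS 24h and *Plaat3* higher after LPS 3h in both genotypes, and the colours of *Hpgd*, *Slco2a1* and *Pla2g2e* in WT comparisons with a group at 0 reads depend on the prior count of the fit.

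Genes with a like course over the 8 groups were looked for by the root mean square difference of the centred log2 CPM of the group means, among 7054 other genes with a mean of at least 10 CPM. For *Ptgs2* the nearest were *Il1a*, an inflammatory cytokine, at 0.36 and *Cxcl2*, a neutrophil chemokine, at 0.39. For *Ptgs1* they were *St6gal1* (0.36) and *Cyp27a1* (0.60), and for *Pla2g4a* the nearest was *Sp100* (0.23). *Ptges* had no gene as near in these absolute units, with *Zfp811* at 0.80 and *Fpr1*, the formyl peptide receptor, at 0.87. The distances are not scaled to a gene's own spread over the groups. That spread was 3.56 for *Ptges* and 3.70 for *Ptgs2*, but 0.86 for *Ptger4* and 0.30 for *Tbxas1*. The unstimulated *Irg1*-/- value of *Ptges* also depends on the prior count. *Ptger4* was nearest to *Pikfyve* (0.25) and *Tmco3* (0.28). For the flatter members the nearest were *Cenpx* and *Abcc3* to *Tbxas1*, *Mfap3* and *Slc25a11* to *Alox5ap*, and *Ticam1* and *Erap1* to *Ptger2*, at 0.11 to 0.13.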

How the data were processed

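The authors prepared libraries by a 3′-end method with oligo-dT priming and 12 PCR cycles, without molecular identifiers, and deposited 1 table of raw read counts per gene for 24 libraries. STAR and the build mm10 are named in the submitters' processing notes; the counting program, its annotation and its use of strand are not given in the sources used here. Rows that name no gene held 22.1% to 33.7% (no feature), 0.254% to 0.441% (ambiguous) and 15.1% to 22.5% (not unique) of a column and were left out. PCR copies are counted as reads, so floors of 3 reads cover counting error only.

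Counts were analysed in R 4.3.3 with edgeR 4.0.16 (limma 3.58.1): filterByExpr, TMM normalisation, 1 term for each of the 8 groups, and the quasi-likelihood test with Benjamini-Hochberg adjustment over 11878 genes at 0.05. The standard error is the log2 fold change divided by the root of the F statistic. Log2 CPM used a prior count of 2. The procedure was tested on simulated data. Alternatives were DESeq2 1.42.0, its size factors, no filter, fits of the compared groups alone, the pool as a term, a replicate block and leaving out each library. Members, lists and tests were chosen with earlier results of these data known. Of 46 other pathway genes, up to 3 per comparison with the largest change among called genes without overlap are named, and for some of these the other genotype's value or, for *Ptgir*, LPS 3h was added after the values were seen. For each tested member the 2 genes with the most similar course are named, except 1 that is not reported here. Same-numbered cultures were checked for pairing: 16 of 84 correlations of their deviations exceeded 0.1 (-0.11 to 0.34). Among these were the culture 3 libraries of both LPS 24h groups, both LPS 24h->LPS 3h groups and unstimulated *Irg1*-/- cells, at 0.19 to 0.34. The numbers were not taken as pairs in the main fit, and the replicate block was an alternative. The lowest chi-square per degree of freedom between replicates was 27.8. Sequences were taken from RefSeq. Python 3.11.15, pandas 2.3.3 and matplotlib 3.10.9 were used.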

Additional observations from a re-analysis of the deposited data

Results flagged for a closer look

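The response of *Ptgs2* to LPS 24h against unstimulated cells differed between the genotypes by a test of the difference itself, with an *Irg1*-/- minus WT value of -2.84 on the log2 scale (SE 0.60, adjusted p = 0.0247 by edgeR's quasi-likelihood test). The response was 5.19 in WT and 2.35 in *Irg1*-/- cells, with 3 cultures in each group. With the pool as a term the difference was -2.22 (adjusted p = 0.164), and no pool held both LPS-treated and unstimulated *Irg1*-/- libraries.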

How the results depend on the processing

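Of 128 log2 values of the members, 38 were called, 28 of them under every alternative, and 0 of the 38 changed sign. A further 38 values were under 0.3 in size and never called, and 30 of these changed sign under at least 1 alternative. Calls lost and gained were 1 and 1 with DESeq2's size factors, 0 and 3 with DESeq2, 2 and 3 without the filter, 5 and 1 in fits of the compared groups alone, and 9 and 3 with the pool as a term. DESeq2's size factors moved the median of all genes in *Irg1*-/- tolerized against non-tolerized cells from 0.12 to 0.01 on the log2 scale.

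Members called after LPS 24h between the genotypes were 1, and 2 with DESeq2 or without the filter, 0 in a fit of the compared groups alone or with the pool as a term, and 0 to 2 leaving out 1 library. For the difference of LPS 24h responses they were 1, then 0 in the compared groups alone or with the pool, and 0 to 2 leaving out 1 library. For the difference of restimulation responses they were 0, then 1 with DESeq2, without the filter or with the pool, and 0 to 1 leaving out 1 library. Tolerized against non-tolerized *Irg1*-/- cells had 6 and, with the pool, 3. The cause was not tested.

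With the pool as a term, values for *Irg1*-/- LPS 24h against unstimulated cells turned from 0.47 to -0.0096 for *Alox5ap* and from 0.50 to -0.056 for *Ptger2*, and that of *Hpgd* for *Irg1*-/- LPS 3h against unstimulated cells from -0.71 to 0.056. Leaving out 1 library, *Pla2g4a* ran from -0.035 to 1.31 between genotypes after LPS 3h, from -1.30 to 0.041 and -0.12 to 1.23 for the difference of tolerized against non-tolerized and of LPS 3h responses, and from -1.04 to 0.15 in WT tolerized against non-tolerized cells, and *Ptgs1* ran from -0.10 to 1.42 in WT restimulated against LPS 24h cells.

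All genes called between genotypes after LPS 24h were 71, with 234 by DESeq2, 246 without the filter, 3 in the compared groups alone, 12 with the pool and 9 to 165 leaving out 1 library. After LPS 24h->LPS 3h they were 14, with 113, 133, 4, 6 and 4 to 30.

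The replicate block lost 0 and gained 3 calls of members: *Tbxas1* in WT (-0.64, adjusted p = 0.045) and *Alox5ap* in *Irg1*-/- cells (-0.70, adjusted p = 0.0493) after LPS 3h, and *Ptgs2* in tolerized against non-tolerized *Irg1*-/- cells (-1.06, adjusted p = 0.0425). The culture numbers were not taken as pairs. Deviations were shared by the culture 3 libraries of both LPS 24h groups, both LPS 24h->LPS 3h groups and unstimulated *Irg1*-/- cells (correlations of 0.19 to 0.34). Whether these libraries share a source was not tested. The depth limits *Alox5*, unstimulated *Ptges* and late *Ptgs1*, which rest on few reads.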
